A study of Mus musculus with 9 samples.

Results

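The guanylate-binding protein genes Gbp2, Gbp2b and Gbp3 to Gbp10 were followed in 3 clones of activated mouse CD8 T cells. They are 10 of the 24060 rows of the expression table. They were chosen by gene name, with the TPM (transcripts per 1000000 transcripts) levels of these 9 libraries already known, so their levels and differences are given as a description with no p-value. All 10 passed the filter that left 11330 genes to test (a TPM above 1 in at least 1 library).

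The study compared CD8 T cells from transnuclear mice, which are cloned by somatic cell nuclear transfer from 1 T cell and so carry its rearranged T cell receptor. The R7-I, R7-II and R7-III lines each derive from a different T cell specific for the ROP7 protein of Toxoplasma gondii, and all are on a BALB/c background with intact Rag2. By the series description, affinity for the cognate peptide falls in the order R7-I, R7-III, R7-II, and self-reactivity in the order R7-III, R7-I, R7-II. For each clone, 3 libraries were made. Splenocytes had been cultured overnight in IL-2 (10 ng/ml) and the ROP7 peptide (10 µM), and from these live CD8+ tetramer+ cells were sorted at a stated purity of 90 to 95%. The clones differ in mouse line as well as in receptor, so these cannot be told apart, and no unstimulated library was used here. The samples are labelled biological replicates, without naming the animals, so the replicate spread may be partly technical.

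Guanylate-binding proteins are large GTPases of the dynamin superfamily, strongly induced by interferon-gamma. In cells infected with Toxoplasma they gather on the vacuole that holds the parasite and help to destroy it, with the immunity-related GTPases and the conjugation machinery of ATG8 proteins guiding them there. Mouse Gbp2, Gbp2b (also called Gbp1) and Gbp5 end in a motif that is prenylated, which anchors them to membranes.

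In GRCm38 (mm10) the genes form clusters on 2 chromosomes. On chromosome 3, all on the plus strand, the order is Gbp5 (142496934 to 142522344), Gbp7 (142530336 to 142550151), Gbp3 (142560016 to 142573213), Gbp2b (142594816 to 142619179) and Gbp2 (142620663 to 142638008). On chromosome 5, all on the minus strand, the order by coordinate is Gbp8 (105012513 to 105053609), Gbp9 (105076464 to 105110357), Gbp4 (105115767 to 105139586), Gbp10 (105215699 to 105239533) and Gbp6 (105270702 to 105295871). All 10 are annotated as protein coding.

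The 3 chromosome 3 genes whose level set R7-II apart from both other clones have the upstream stretches shown here, each the 200 bases before the RefSeq start on GRCm38.p6, plus strand. Capitals mark TTTC, any 2 bases, then TTTC again (GAAA, any 2 bases, GAAA on the other strand), the letters of an interferon-stimulated response element core. The start used for Gbp2b lies inside its annotated interval above. The stretches are chr3:142594647-142594846 for Gbp2b, chr3:142620463-142620662 for Gbp2 and chr3:142496734-142496933 for Gbp5.
Gbp2b: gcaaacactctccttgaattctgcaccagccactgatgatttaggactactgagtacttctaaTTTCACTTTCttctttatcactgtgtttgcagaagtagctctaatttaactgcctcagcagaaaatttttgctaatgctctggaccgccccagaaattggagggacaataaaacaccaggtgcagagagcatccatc
Gbp2: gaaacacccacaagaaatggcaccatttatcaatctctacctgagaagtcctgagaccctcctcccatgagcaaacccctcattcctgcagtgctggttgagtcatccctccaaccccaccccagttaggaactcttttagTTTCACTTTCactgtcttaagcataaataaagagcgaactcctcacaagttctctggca
Gbp5: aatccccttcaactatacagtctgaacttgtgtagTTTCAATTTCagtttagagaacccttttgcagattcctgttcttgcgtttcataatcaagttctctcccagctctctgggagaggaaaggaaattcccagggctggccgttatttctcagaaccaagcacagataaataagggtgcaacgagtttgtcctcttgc

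The motif was searched on both strands of windows from 250 bases before to 50 after each start. It was in 5 of the 6 windows of the chromosome 3 members, 1 for each gene, and the second window of Gbp3 lacked it. Over all genes it was in 3.44% of 32851 windows of the same length. It began 137 bases before the start of Gbp2b, 59 before that of Gbp2 and 165 before that of Gbp5. It began 53 bases before the start of Gbp7, and overlapping matches began 45 and 39 bases before that of Gbp3. The same 10 letters stood in the stretches of Gbp2b and of Gbp2. The chromosome 5 members had no window in the sequence table used here.

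Paralogs can share reads, so the transcripts were compared at the read length of 100 bases. Only exact matches between reference transcripts were counted. Reads placed with mismatches, and sequence differences of the BALB/c background from the reference, were not tested for any member. No 100-base word of Gbp2, Gbp2b or Gbp5 occurred in another family transcript. The share was 0.44% of the words for Gbp7, 0.93% for Gbp3, 1.05% for Gbp9, 2.88% for Gbp4 and 3.81% for Gbp8. It was 33.2% for Gbp10 and 46.7% for Gbp6, a pair whose coding sequences were 98.4% identical. Levels of Gbp6 and Gbp10 are therefore uncertain one by one. Gbp2 and Gbp2b were 82.5% identical over the coding sequence. Their longest common run, coding bases 340 to 437 of both, is shown because its 98 bases stop just short of a read:
Gbp2 and Gbp2b: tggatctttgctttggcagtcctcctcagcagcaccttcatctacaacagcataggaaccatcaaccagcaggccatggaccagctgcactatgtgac

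**Figure D1:**
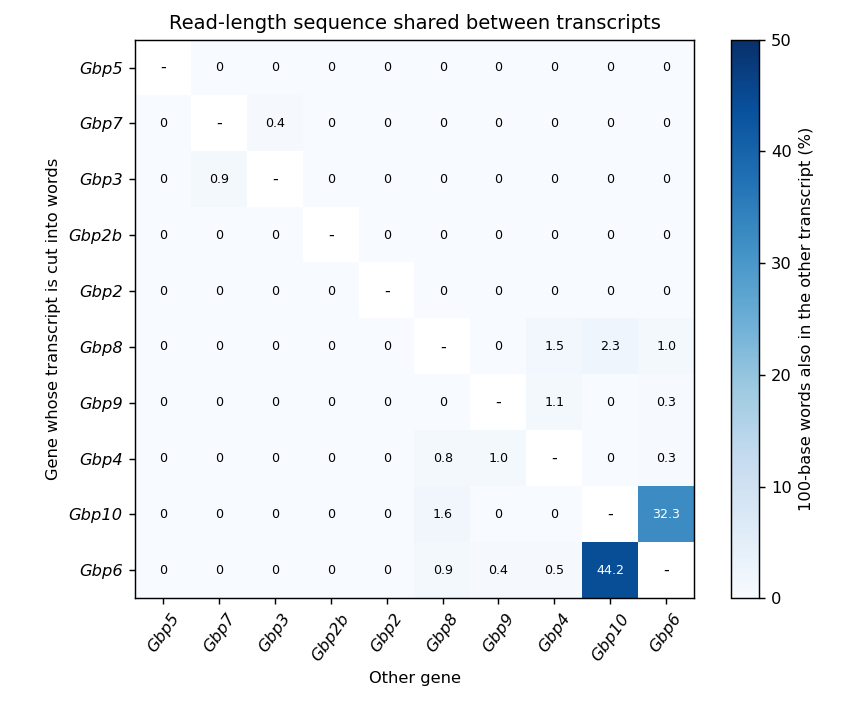
Share of the 100-base words of each transcript (rows) that also occur in the transcript of another member (columns), in percent. Gbp6 and Gbp10 share 44.2% and 32.3% of their words, while Gbp2, Gbp2b and Gbp5 share none with any member.

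In the series as a whole, each library sums to 1000000 TPM or within 1 of it, and 13738 to 14434 genes are above 0. TPM keeps no read depth, so no counting interval can be given. Genes were tested with limma on log2(TPM + 1) in 1 fit of the 9 libraries, and a gene passed at a Benjamini-Hochberg adjusted p under 0.01. Over all genes, the log2 fold change of R7-II had a median of 0.17 relative to R7-I and 0.12 relative to R7-III, and that of R7-III one of 0.04 relative to R7-I. Member values are best read relative to these. In that order, 72.4%, 66.5% and 82.8% of the genes that passed were higher in the clone named first, and 46.2%, 47.0% and 56.6% after median-of-ratios scaling. T cell markers, such as the CD3 subunits, summed to 2755 to 2770 TPM in R7-I, 3415 to 3569 in R7-II and 3086 to 3152 in R7-III, while no NK cell marker reached the filter (sums of at most 0.24 TPM). Among the T cell markers, Cd5 passed as lower in R7-II against R7-I (-0.61) and R7-III (-0.94). The CD4 T cell list of 4 summed to 3.36 to 4.11 TPM in R7-I, 4.03 to 5.81 in R7-II and 5.62 to 8.01 in R7-III. Of its 2 genes tested, 0 passed against R7-I, and 1 as higher and 1 as lower against R7-III. B cell, MHC class II and myeloid markers were higher in R7-II, where 40.6% of all genes passed as higher against R7-I and 35.6% against R7-III. The B cell list of 9 genes summed to 34.0 to 70.5 TPM against 4.79 to 15.2 in the other clones, and passed as higher for 7 of 7 genes tested against each. The MHC class II list of 10 summed to 125 to 205 TPM against 26.3 to 53.6, with 10 of 10 passing as higher against each. The myeloid list of 14, of which 13 were in the table, summed to 87.4, 60.0 and 142 TPM in R7-II replicates 1 to 3 against 30.5 to 39.4, with 10 of 12 tested passing as higher against R7-I and 11 of 12 against R7-III. Their part in the results that follow was not tested. In a bulk library, fewer cells of a type and less RNA per cell cannot be told apart.

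Within R7-II the libraries differed in this family, and each is given separately. R7-II replicate 1 stood apart: its log2(TPM + 1) of Gbp2b was 5.27 above the mean of replicates 2 and 3, the largest such gap in size among the 11330 genes tested. Across all genes the standard deviation of this gap was 0.22.

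Gbp2b, encoding the protein also known as Gbp1, was low in R7-II, and close to 0 in 2 of its 3 libraries. Its level was 64.6, 64.3 and 71.3 TPM in R7-I replicates 1 to 3, a mean of 66.7 ± 3.97 (SD, n = 3). In R7-III it was 80.1, 79.2 and 81.2 TPM, a mean of 80.1 ± 0.992 (SD, n = 3). In R7-II it was 39.1 TPM in replicate 1 but 0.04 in replicates 2 and 3, a mean of 13.1 ± 22.6 (SD, n = 3). All 3 R7-II libraries lay below all 6 others. On the log2(TPM + 1) scale Gbp2b differed by -4.27 (SE 1.09) from R7-I and by -4.53 (SE 1.09) from R7-III. With 2 libraries near 0 the size depended on the pseudocount, being -6.19 and -6.45 with 0.1 and -2.79 and -3.03 with 5. Gbp2b passed in both comparisons, but not when R7-II replicate 2 or replicate 3 was left out (-3.39 against R7-I and -3.65 against R7-III in each case). It also missed the threshold against R7-I without any 1 of the R7-I libraries (replicates 1, 2 and 3), and against R7-III without any 1 of the R7-III libraries (replicates 1, 2 and 3). Without R7-II replicate 1 the difference was -6.02 (R7-I) and -6.29 (R7-III).

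Gbp2, which binds the Toxoplasma vacuole and is needed for full resistance of mice to the parasite, moved the other way from its neighbour. Its level was 72.8, 82.2 and 83.7 TPM in R7-I (79.5 ± 5.89, SD, n = 3) and 85.2, 94.2 and 87.9 TPM in R7-III (89.1 ± 4.61). In R7-II it was 130, 220 and 197 TPM (182 ± 47.1), above every library of the other clones. The log2 difference was 1.16 (SE 0.15) from R7-I and 0.99 (SE 0.15) from R7-III, and the ratio of mean TPM was 2.29 and 2.05. Gbp2 passed in both comparisons.

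The R7-II library with the lowest Gbp2, replicate 1, was the one with the highest Gbp2b. Replicate 1 was the lowest R7-II library for 6 of 10 members and for 36 of 39 other interferon-stimulated genes, beside 22.9% of all genes. Its gap from the mean of replicates 2 and 3 was -0.68 for Gbp2. For Gbp8 it was -0.01, for Gbp5 -0.06, for Gbp7 -0.08 and for Gbp3 0.33. Whether the levels of Gbp2 and Gbp2b in replicate 1 are linked was not tested. Adding the TPM of both genes gave 137, 146 and 155 in R7-I, 169, 221 and 197 in R7-II, and 165, 173 and 169 in R7-III. The R7-II sum lay above every R7-I sum but overlapped R7-III, where replicate 1 fell within its range. With the genes summed before the fit, an alternative added after seeing the data, the log2 difference was 0.41 from R7-I and 0.20 from R7-III. Gbp2 held most of the sum in R7-II (mean 182.5 of 195.6 TPM), so its positive sign follows Gbp2 and does not bear on Gbp2b alone.

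**Figure D2:**
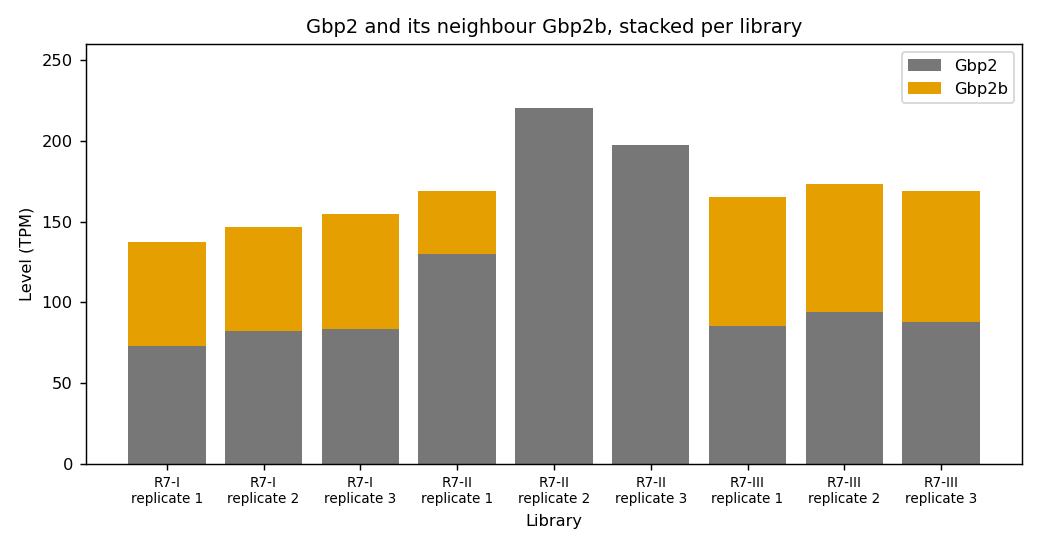
Levels of Gbp2 (grey) and Gbp2b (orange) in TPM, stacked for each of the 9 libraries. Gbp2b is too small to see in R7-II replicates 2 and 3 (0.04 TPM), where Gbp2 reaches 220 and 197 TPM.

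Gbp5, linked to assembly of the NLRP3 inflammasome, had the highest mean level of the family in R7-I and in R7-III. It was 88.4, 87.8 and 89.7 TPM in R7-I (88.6 ± 0.981, SD, n = 3) and 92.9, 94.5 and 87.7 TPM in R7-III (91.7 ± 3.54). In R7-II it was 69.7, 70.8 and 74.7 TPM (71.7 ± 2.65), below every library of the other clones. The log2 difference was -0.30 (SE 0.039) from R7-I and -0.35 (SE 0.039) from R7-III, and it passed in both. The ratio of mean TPM was 0.809 and 0.782. The log2 difference was -0.49 from R7-I and -0.48 from R7-III after median-of-ratios scaling, and -0.39 and -0.41 after quantile normalization.

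The remaining chromosome 3 genes, Gbp3 and Gbp7, did not pass in any comparison. Gbp7, tied to the delivery of NADPH oxidase and autophagy factors to vacuoles, was 18.5, 20.4 and 16.5 TPM in R7-I, 16.1, 13.6 and 21.6 in R7-II, and 21.0, 20.7 and 19.8 in R7-III. Gbp3 was 18.7 to 19.2 TPM in R7-I, 18.9, 12.7 and 17.1 in R7-II, and 18.6 to 20.4 in R7-III. R7-II overlapped both other clones for either gene. The log2 differences of R7-II from R7-I and R7-III were -0.13 and -0.27 (SE 0.13) for Gbp7 and -0.23 and -0.27 (SE 0.11) for Gbp3. Against R7-III, Gbp3 passed without R7-II replicate 1 (-0.38) and Gbp7 without R7-II replicate 3 (-0.44). Without R7-II replicate 2, the differences from R7-I and R7-III were -0.07 and -0.12 for Gbp3 and 0.02 and -0.13 for Gbp7. Gbp3 also passed as lower after median-of-ratios scaling (-0.41 against R7-I and -0.40 against R7-III).

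On chromosome 5, Gbp4, Gbp8 and Gbp9 were higher in all 3 R7-II libraries than in any other library. Gbp8 had the largest ratio. It was 3.84, 3.27 and 3.38 TPM in R7-I (mean 3.5 ± 0.302, SD, n = 3), 27.2, 22.1 and 34.1 in R7-II (27.8 ± 6.06) and 5.21, 4.28 and 4.87 in R7-III (4.79 ± 0.471). Its mean was thus 7.95 times that of R7-I and 5.81 times that of R7-III, with log2 differences of 2.66 and 2.30 (SE 0.13).

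Gbp4, like its neighbours inducible by interferon, was 37.4, 41.8 and 41.0 TPM in R7-I (40.1 ± 2.31), 82.1, 99.7 and 123 in R7-II (101 ± 20.3) and 49.7, 50.6 and 49.2 in R7-III (49.9 ± 0.712). The log2 differences were 1.30 and 0.99 (SE 0.11). Gbp9 was 21.6, 24.7 and 22.8 TPM in R7-I (23.0 ± 1.56), 45.4, 53.1 and 75.6 in R7-II (58.0 ± 15.7) and 26.6, 26.5 and 27.9 in R7-III (27.0 ± 0.777), with log2 differences of 1.27 and 1.04 (SE 0.14). Gbp4, Gbp8 and Gbp9 passed against both clones. The sum of Gbp8 with Gbp4 and Gbp9, both above Gbp8 in every library, had a log2 difference from R7-I of 1.46, beside 2.66 for Gbp8 alone.

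Gbp6 and Gbp10, the near-identical pair, did not pass, and R7-II spanned the other clones. Gbp6 was 27.8, 31.9 and 26.2 TPM in R7-I, 19.2, 36.3 and 41.1 in R7-II, and 36.1, 37.4 and 35.6 in R7-III. Gbp10 was 17.6, 22.2 and 18.9 TPM in R7-I, 13.9, 29.2 and 37.8 in R7-II, and 24.9, 24.6 and 23.9 in R7-III. Replicate 1 of R7-II was below every other library for both genes, and replicate 3 was above every other.

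The log2 difference from R7-I was 0.10 (SE 0.21) for Gbp6, which turned to -0.08 after median-of-ratios scaling and -0.12 after quantile normalization, and 0.34 (SE 0.27) for Gbp10. Against R7-III it was -0.24 (SE 0.21) for Gbp6 and 0.03 (SE 0.27) for Gbp10, the latter turning to -0.10 after median-of-ratios scaling and -0.14 after quantile normalization. Without R7-II replicate 1, Gbp6 passed as higher against R7-I (0.42), Gbp10 did so against both R7-I (0.74) and R7-III (0.43), and the difference of Gbp6 from R7-III turned to 0.09. Without replicate 2 or replicate 3 neither gene passed. Gbp6 then differed from R7-I by -0.02 and -0.11, and Gbp10 by 0.23 and 0.05, while the difference of Gbp10 from R7-III turned to -0.08 and -0.26. Their summed level, on which the split of shared reads has less bearing but which still weighs it by transcript length (2604 bases for Gbp6 and 3528 for Gbp10), was 45.1 to 54.1 TPM in R7-I, 33.1, 65.5 and 79.0 in R7-II and 59.5 to 62.0 in R7-III. The ratio of Gbp10 to Gbp6 was 0.633 to 0.720 in R7-I, 0.724, 0.804 and 0.919 in R7-II and 0.658 to 0.688 in R7-III.

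**Figure D3:**
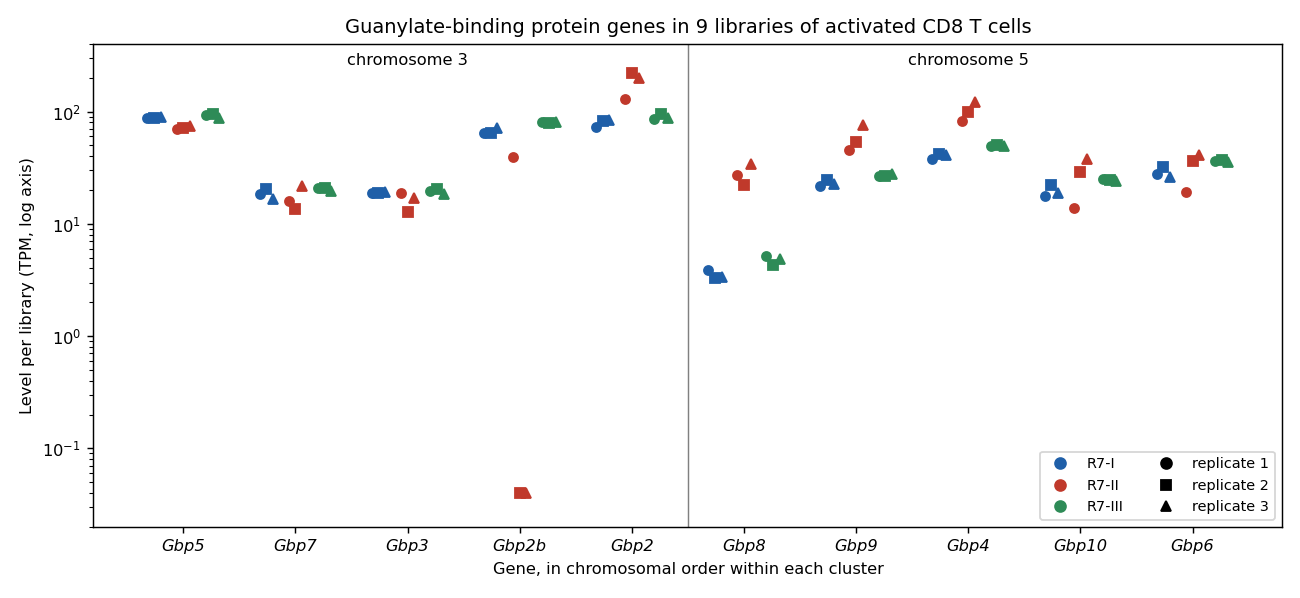
Level of each gene in TPM (log axis) in each of the 9 libraries, by clone (colour) and replicate (symbol). Gbp2, Gbp4, Gbp8 and Gbp9 are higher and Gbp5 and Gbp2b lower in all 3 R7-II libraries, and Gbp2b is at 0.04 TPM in 2 of them.

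Across the family, 4 of 10 members passed as higher in R7-II relative to R7-I (Gbp2, Gbp4, Gbp8 and Gbp9), where 40.6% of all genes tested did, and 2 as lower (Gbp2b and Gbp5), where 15.5% did. The same members passed against R7-III, 4 as higher beside 35.6% of all genes and 2 as lower beside 18% of all genes. Both comparisons share the R7-II libraries. These shares are printed as background and nothing is read from the counts, since the members were chosen with the levels known. Over the members the median log2 difference was 0.22 from R7-I and -0.10 from R7-III, beside 0.17 and 0.12 over all genes. The values ranged from -4.27 to 2.66 and from -4.53 to 2.30.

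R7-III and R7-I were much closer to each other. No member passed in limma (0 of 10 at the adjusted threshold, where 6.96% of all genes passed as higher and 1.45% as lower), while 2 of 10 had an unadjusted p under 0.05, as did 32.3% of all genes. Every fitted difference was positive in R7-III, from 0.04 for Gbp3 to 0.36 for Gbp8, beside 63.2% positive over all genes, but after median-of-ratios scaling those of Gbp3 and Gbp5 were just below 0 (each -0.01), as was that of Gbp3 after quantile normalization (-0.04). In 7 of 10 members every R7-III library was above every R7-I library, beside 29.5% of all genes, and in none was it below, beside 12.4%. The fit gave all 3 clones 1 spread per gene, which for Gbp2b the R7-II libraries widened: its difference of 0.26 did pass when R7-II replicate 1 was left out. When only these clones entered the fit, 2 of 10 members passed, Gbp2b and Gbp4, both higher in R7-III.

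**Figure D4:**
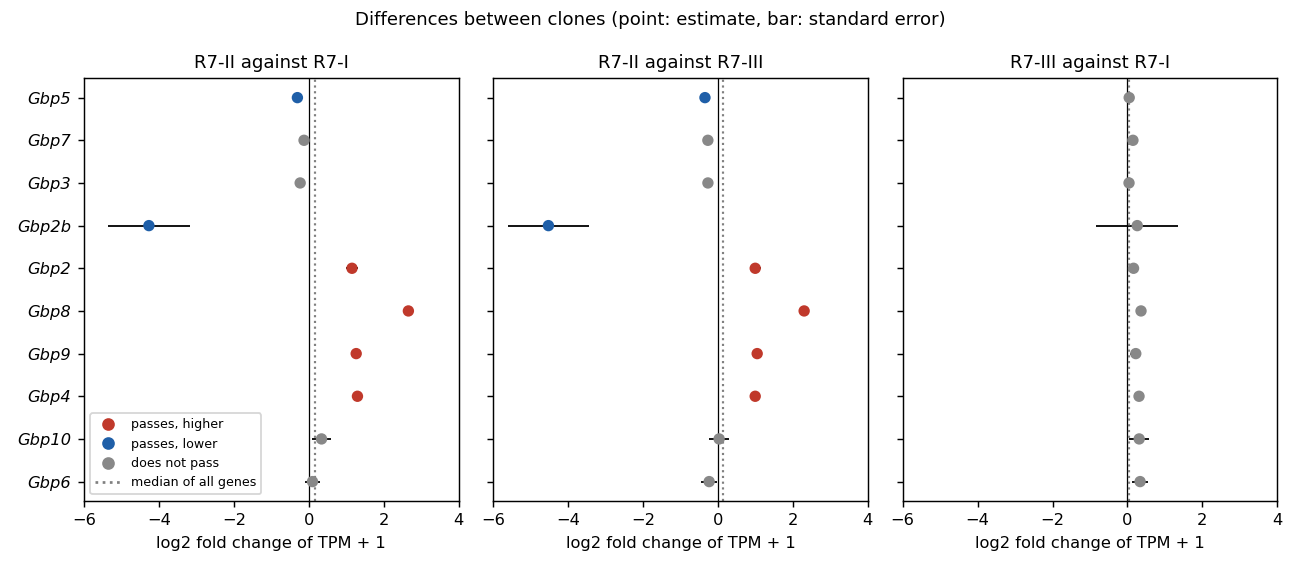
Log2 fold change of TPM + 1 (points) with its standard error (bars) for each gene in the 3 comparisons, with the median of all genes dotted. R7-II differs from both others upward for Gbp2, Gbp4, Gbp8 and Gbp9 and downward for Gbp2b and Gbp5, while all points of R7-III against R7-I lie between 0.04 and 0.36.

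The rank order of the genes also differed between clones. By mean TPM, a level per transcript length, R7-I and R7-III both ran Gbp5, Gbp2, Gbp2b, Gbp4, Gbp6, Gbp9, Gbp10, then Gbp3 and Gbp7, and Gbp8 last. In R7-I the ranges of Gbp10, Gbp3 and Gbp7 overlapped, and so did those of Gbp9 and Gbp10. In R7-III the overlaps were between Gbp5 and Gbp2 and between Gbp7 and Gbp3. In R7-II the order was Gbp2, Gbp4, Gbp5, Gbp9, Gbp6, Gbp8, Gbp10, Gbp7, Gbp3 and Gbp2b. Gbp2 was above Gbp4 in every library, the ranges of Gbp5 and Gbp9 overlapped, and each gene from Gbp6 to Gbp2b overlapped the next. The last place of Gbp2b rests on its mean. In replicate 1, at 39.1 TPM, it was above Gbp8 (27.2), Gbp6 (19.2), Gbp3 (18.9), Gbp7 (16.1) and Gbp10 (13.9). In replicates 2 and 3, at 0.04 TPM, it was below every other member.

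The family summed to 371 to 397 TPM in R7-I, 461, 558 and 622 in R7-II, and 437 to 452 in R7-III. The clusters contributed unequally. The chromosome 3 sum was 272 ± 8.74 TPM in R7-I, 301 ± 23.8 in R7-II and 301 ± 7.16 in R7-III (SD, n = 3 each). The chromosome 5 sum was 115 ± 8.06, 246 ± 61.9 and 142 ± 0.995 TPM in the same order. Gbp2 made up a mean of 20.5% of the family in R7-I, 33.1% in R7-II and 20.1% in R7-III, and Gbp5 made up 22.9%, 13.3% and 20.7%. Gbp2b made up 17.2% in R7-I and 18.1% in R7-III, but 8.48%, 0.0072% and 0.0064% in R7-II replicates 1 to 3.

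Among the genes that induce or relay interferon signals, the ligand and the receptors differed in opposite directions. Of the 10 genes of the interferon-gamma list, 5 passed as higher and 1 as lower in R7-II when set against R7-I, and 4 and 1 when set against R7-III. Over all genes, 40.6% passed as higher and 15.5% as lower against R7-I, and 35.6% and 18% against R7-III. These shares, from before any scaling, stand beside the unscaled counts of every list below. After median-of-ratios scaling the counts against R7-I were 4 and 3. With that scaling, 6194 of 11330 genes passed against R7-I, and 46.2% of these were higher. Against R7-III 6035 passed, and 47.0% of these were higher. These values belong beside every scaled count below. Ifng, the cytokine itself, was 133 to 160 TPM in R7-I, 25.2, 36.9 and 47.5 in R7-II and 117 to 128 in R7-III, with log2 differences of -2.04 and -1.76 that both passed. The receptor chains Ifngr1 (0.67 and 0.68) and Ifngr2 (1.26 and 1.09), the kinase Jak1 (0.62 and 0.66) and the feedback inhibitor Socs3 (2.35 and 2.61) were higher against R7-I and R7-III. Jak2, Irf1, Socs1 and Ptpn2 did not pass against either clone, with Irf1 at 0.10 and -0.06.

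The factors of the IRF list, which includes the BATF partners, were split. Of 11 tested, 4 passed as higher and 3 as lower against R7-I, beside 40.6% and 15.5% of all genes. Against R7-III the counts were 3 and 4, beside 35.6% and 18%. After median-of-ratios scaling they were 3 and 4 against R7-I. Irf2 (0.72 and 0.69) and Irf3 (0.26 and 0.19) were among those higher against both clones, but Irf3 stands close to the shift of all genes. Irf7, which amplifies type I interferon responses, was 12.3, 22.9 and 40.1 TPM in R7-II against 7.04 to 13.8 TPM elsewhere, so its R7-II range overlapped that of R7-III, and it passed against R7-I only (1.45 and 0.83). Irf8 was 50.5, 72.4 and 73.1 TPM in R7-II against 168 to 205 elsewhere and passed as lower (-1.48 and -1.54), as did Irf4 (-0.31 and -0.21) and Batf3 (-1.14 and -1.13). Batf passed as lower against R7-III only (-0.52).

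The type I interferon receptor and ISGF3 list had 4 of 6 genes passing as higher against R7-I, beside 40.6% of all genes. Against R7-III it had 2 of 6, beside 35.6%, and none passed as lower against either clone. Stat2 (0.93 and 0.72) and Ifnar1 (0.72 and 0.66) passed against both clones, and Irf9 (0.22 and 0.22) against neither. Relative to R7-I, Tyk2 was higher in R7-II (0.38) and in R7-III (0.30).

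The immunity-related GTPases act with the guanylate-binding proteins at the vacuole. Of 9 tested, 5 passed as higher and 1 as lower against R7-I, where 40.6% and 15.5% of all genes did, and 3 and 1 against R7-III. After median-of-ratios scaling the counts were 3 and 1 against R7-I, and 2 and 1 against R7-III. Tgtp1 (1.07 and 1.07), Tgtp2 (1.06 and 0.80) and Igtp (0.70 and 0.44) were higher, though Tgtp1 and Tgtp2 are close copies whose reads may be split. Iigp1 was 3.18 to 5.82 TPM in R7-II against 13.4 to 17.5 elsewhere (-1.53 and -1.55). Irgm1, a regulator of the others, was 58.7, 87.3 and 92.7 TPM in R7-II and did not pass (-0.07 and -0.20). Ifi47, the most abundant, was higher against R7-I only (0.41 and 0.25). Relative to R7-I, Irgm2 was higher in R7-III (0.59) and in R7-II (0.47), and R7-II did not pass against R7-III (-0.12).

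Of 39 other interferon-stimulated genes tested, 15 passed as higher and 2 as lower against R7-I, beside 40.6% and 15.5% of all genes. Against R7-III the counts were 9 and 3, beside 35.6% and 18%. In R7-III against R7-I they were 1 higher and 0 lower, beside 6.96% and 1.45%. After median-of-ratios scaling the counts against R7-I became 8 and 3, where 6194 of 11330 genes passed and 46.2% of those were higher. Without R7-II replicate 1 the counts were 21 and 2, for which no share of all genes is given. Ifit3 (2.21 and 2.15), part of a complex that binds viral RNA, and Samhd1 (2.08 and 1.72), a nucleotide hydrolase, had the largest differences. Bst2, which tethers virions, was lower (-0.67 and -0.77), and the chemokine gene Cxcl10 was lower against R7-I only (-1.09 and -0.56). Ifi27l2a, with Bst2 the most abundant of the list, did not pass (-0.07 and -0.59). The gene that passed between R7-III and R7-I was Trim25 (0.45). It was also higher in R7-II relative to R7-I (0.38) but did not pass against R7-III (-0.07).

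The proteins that act on the guanylate-binding proteins or downstream of them were also counted. The shares of all genes to set beside the unscaled counts are 40.6% higher and 15.5% lower against R7-I, and 35.6% and 18% against R7-III. For scaled counts, 46.2% of the 6194 genes passing against R7-I and 47.0% of the 6035 passing against R7-III were higher. Of 12 genes of the ATG8 conjugation system, 7 passed as higher and 0 as lower against R7-I, and 7 and 1 against R7-III, but 4 and 1 against R7-I after median-of-ratios scaling. Gabarap (0.55 and 0.54), the most abundant, Map1lc3b (0.77 and 0.68) and Map1lc3a (1.30 and 0.80) were higher against both clones and Gabarapl2 against R7-I only (0.20), and Gabarapl1 was lower against R7-III (-0.38). Of 6 prenylation genes, 3 passed as higher (Fnta, Fntb and Rce1, 0.22 to 0.29) and 1 as lower (Icmt, -0.16) against R7-I, but 0 and 2 after median-of-ratios scaling. Of 6 inflammasome genes, Gsdmd, the pore-forming protein, was higher (0.83 and 0.71) and Casp4, the caspase that senses lipopolysaccharide, lower (-1.02 and -1.26). In all, 3 passed as higher and 1 as lower against R7-I, and 2 and 1 against R7-III. Of 7 other large GTPases of the dynamin superfamily, 3 passed as higher against each clone, with the largest difference in Dnm2 (0.79 and 0.76), and 0 as lower. After median-of-ratios scaling the counts were 1 higher and 2 lower against R7-I, and 1 and 0 against R7-III.

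The R7-II libraries differed among themselves in the family and in other interferon-stimulated genes. Replicate 1 held the lowest R7-II level of 6 of 10 members, beside 22.9% of all genes, and replicate 3 the highest of 70.0%, beside 28.7%. Among the 39 other interferon-stimulated genes, replicate 1 was lowest for 36 and replicate 3 highest for 37. Among the 9 immunity-related GTPases, replicate 1 was lowest for 9. The level of Ifit3 was 2.90, 15.2 and 26.6 TPM in replicates 1 to 3, where Gbp10 was 13.9, 29.2 and 37.8 TPM. Myeloid markers were highest in replicate 3 for 11 of 12 genes, but the list summed to less in replicate 2 (60.0 TPM) than in replicate 1 (87.4 TPM), and their part in this spread was not tested.

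**Figure D5:**
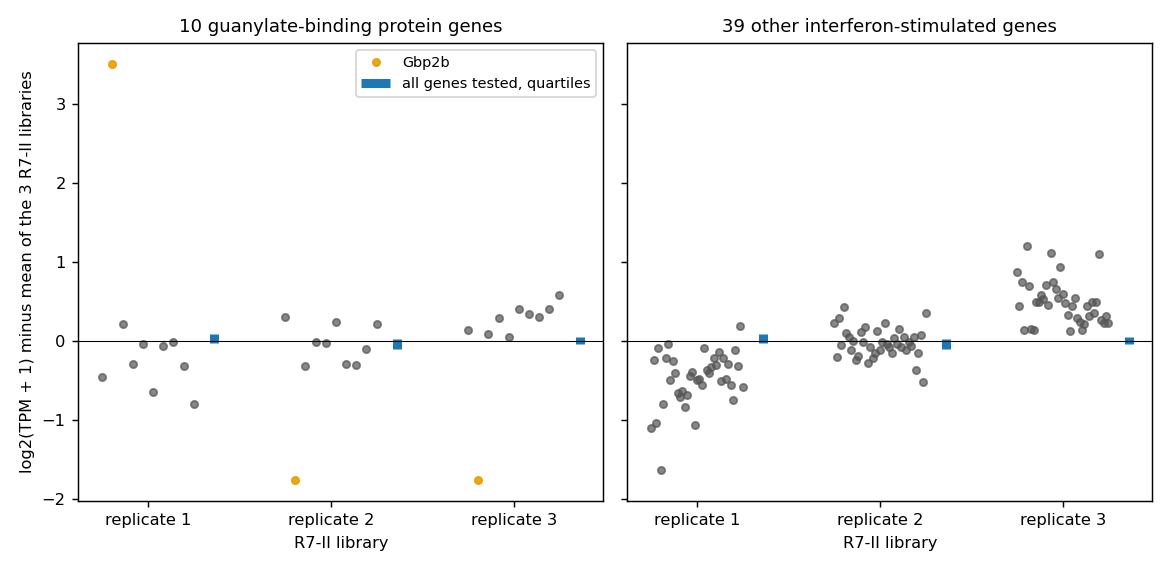
Deviation of log2(TPM + 1) from the mean of the 3 R7-II libraries for the 10 members (left) and 39 other interferon-stimulated genes (right), 1 point per gene and library, with the quartiles of all genes as blue bars. The median of the other interferon-stimulated genes is -0.44 in replicate 1 and 0.49 in replicate 3, while Gbp2b is the single point far above the rest in replicate 1.

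The gap between replicate 1 and the mean of replicates 2 and 3 was -1.20 for Gbp10, -0.97 for Gbp6, -0.68 for Gbp2, -0.47 for Gbp9 and -0.43 for Gbp4. It was smaller for Gbp8 (-0.01), Gbp5 (-0.06) and Gbp7 (-0.08), and 0.33 for Gbp3. Of all genes, 67 (0.591%) exceeded 1 in size. Within 5 Mb of Gbp2b, 35 genes outside the family were tested and 1, chosen here after its values were seen, exceeded 1: Mcoln3, a lysosomal cation channel gene starting at chromosome 3 position 146093277 (GRCm38). Its level was 6.55, 2.33 and 2.29 TPM in R7-II replicates 1 to 3, against 10.5 to 11.4 in R7-I and 11.1 to 12.3 in R7-III, a gap of 1.19. The next largest gap among these neighbours was 0.62.

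Closer neighbours of the chromosome 3 cluster did not share 1 direction. Those of the chromosome 5 cluster that passed were all higher in R7-II. So were 72.4% of all genes that passed against R7-I and 66.5% against R7-III, so nothing is read from that direction. The median difference over all genes was 0.17 and 0.12. Within 1 Mb of Gbp2b, Pdlim5 was higher in R7-II (0.53 against R7-I and 0.62 against R7-III), Ccbl2 was lower (-0.61 and -0.79), Gtf2b did not pass (0.10 and 0.11), and Pkn2 passed against R7-III only (0.16). Within 1 Mb of Gbp4 outside the family, Zfp951 (0.91 and 0.73) and Abcg3 (0.89 and 1.02) had the largest differences together with Gbp11. Lrrc8b, Lrrc8c and Zfp326 passed as higher against both clones with values of 0.20 to 0.38, D930016D06Rik against R7-I only (0.43), and Lrrc8d against neither. Gbp11, a transcribed pseudogene of the family that is no member, was 0.41 to 0.56 TPM in R7-I, 1.73 to 2.62 in R7-II and 0.44 to 0.67 in R7-III (1.05 and 0.96).

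The genes whose profile over the 9 libraries was closest to a member were found by the root mean square difference of centred log2(TPM + 1). For Gbp2, the member of highest mean level, these were Lpxn (0.14), Tgtp1 (0.15), Gbp4 (0.15), Cers4 (0.16) and Clip3 (0.16), where the profile of Gbp2 itself has a root mean square of 0.55. For Gbp2b none was close: Il3 (1.48), Tnfsf11 (1.74), Tbx21 (1.76), Mcoln3 (1.77) and Serpinb9 (1.79) came nearest, against 2.52 for its own profile. Il3 was 0.24, 0.12 and 0.41 TPM in R7-II replicates 1 to 3, so it was low in all of them, unlike Gbp2b. Within the family, Gbp4 and Gbp9 were the closest pair (0.070, beside root mean squares of 0.57 and 0.58 for their own profiles). Gbp6 and Gbp10 were 0.15 apart (own profiles 0.31 and 0.38). Gbp3 and Gbp5 were 0.14 apart, but their own profiles had root mean squares of 0.18 and 0.16, so both varied little over the libraries. The points share libraries, so these values are a description.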

How the data were processed

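RNA from sorted, peptide-activated CD8 T cells was sequenced in 9 libraries, 3 per clone. Per the study's methods, the authors aligned 100-base single-end reads without strand information and estimated gene levels with RSEM 1.2.11 against mm10 RefSeq genes. The deposited table holds TPM per gene and library, which is relative to the total of each library and keeps no read depth. The authors tested counts with DESeq2 1.8.1, which needs values not used here.

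From the TPM, limma 3.58.1 (R 4.3.3) was fitted to log2(TPM + 1) with a mean-variance trend over all 9 libraries, for genes with a maximum TPM above 1 in these 9 libraries. Benjamini-Hochberg adjustment covered all 11330 genes, with a threshold of 0.01. The study used the same limits over all its samples, so its set of genes can differ. A fold change on this scale understates the change of low genes. The fits were tested on simulated data. Members and gene lists were chosen with earlier results of these data known. Named were all members, genes of the interferon-gamma and IRF lists (a few, and 1 other promoter motif, are not reported here, though the genes enter the counts), of other lists the 3 highest by mean TPM and the largest changes each way, all tested genes within 1 Mb of Gbp2b or Gbp4, and the 5 nearest profiles. A few others, chosen after their values were seen, are Mcoln3 and the list genes counted in small groups. Transcript words came from GENCODE M21 on GRCm38, upstream sequence from RefSeq on GRCm38.p6, with Biopython 1.88. Alternatives were other pseudocounts (0.1 and 5), filters, scalings, limma settings, a replicate block and leaving out each library. The labels do not say whether equal replicate numbers mark libraries processed together. The unmatched columns of values numbered 0.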

Additional observations from a re-analysis of the deposited data

How the results depend on the processing

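Member differences were recomputed under other settings (pseudocount, filter, scaling, limma option, block and left-out libraries). Of 570 values, 554 stayed within the gene's own pooled replicate SD and 16 moved. Filters, limma options, the block and leaving out a library of the clone not compared cannot change a difference of clone means. Agreement under those settings was therefore fixed in advance. The limit is wide where replicates spread: Gbp2b against R7-I stayed within it from -6.19 to -2.79. The counts of members passing against R7-I and against R7-III stayed within 1.5 times the count of 6 under every one of these settings. For R7-III set against R7-I the count was 0, but 2 when only these 2 clones were fitted, and 0 to 1 when 1 library was left out. When Gbp2 and Gbp2b were summed, an alternative chosen after seeing the data, the difference reversed to 0.41 against R7-I and 0.20 against R7-III. With a replicate block the counts were 6, 6 and 0. Deviations of same-numbered libraries correlated at -0.0449 to 0.0888, and those of differently numbered libraries at -0.0948 to 0.0649. The labels do not say whether libraries of 1 number were processed together, and these correlations cannot settle it. Gbp2b also missed the threshold with no filter on low values, no trend, robust eBayes or only 2 clones fitted. Of 900 list counts, 822 stayed within 1.5 times and 78 moved. TPM carries no depth, so the counting error of low levels such as 0.04 TPM cannot be given here.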
